A study of Mus musculus with 40 samples.

Results

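The effect of a higher folic acid dose in the maternal diet was averaged over both fat levels and both fetal sexes, with 38 of the 40 liver libraries of the series: 19 from fetuses of dams fed 10 mg/kg folic acid and 19 from fetuses of dams fed 2 mg/kg. Libraries were chosen by the diet and sex in their labels, and 2 were left out for lung message, as given below. All 4 diets were fed to C57BL/6J females for 13 weeks before breeding and through pregnancy, and the fetuses, labelled C57BL/6, were taken on gestational day 18.5. The groups at 10 mg/kg were WDF (45% of calories from fat) with 5 males and 5 females, and CDF (10% of calories from fat) with 5 males and 4 females. Their counterparts at 2 mg/kg were WD with 5 males and 5 females, and CD with 5 males and 4 females. The 45% fat diet is the study's model of gestational diabetes in the dam, so the WDF and WD fetuses share that exposure. The fetuses themselves received no diet, each library came from 1 fetus, and no label gives its dam or litter. Each p-value therefore rests on the variation among fetuses, which need not be independent if litters were shared. The pairs of groups of the same fat level and sex are called strata here, and the dose was fitted within them. What was measured was polyadenylated RNA, as the authors' read counts scaled between libraries (normalised read counts).

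Folic acid is the synthetic vitamin from which cells make tetrahydrofolate, the carrier of carbon units. These units are used to build purines and thymidylate for DNA, and to remake methionine from homocysteine, from which S-adenosylmethionine, the methyl donor of DNA and histone methylation, is formed. The liver is the main store of folate and holds much of the methionine cycle, and in late gestation it also holds blood-forming cells that divide fast. The comparison asks which transcripts of the fetal liver differ with the dose whatever the fat level and sex.

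The 38 libraries held normalised read counts that summed to between 15002000 and 27817200. Albumin message (Alb), the defining product of hepatocytes, lay between 641907 and 1496610 in all of them. In the library left out at 10 mg/kg (CDF females, replicate 5) Alb was 5278 and the lung surfactant gene Sftpc 67014, and in the library left out at 2 mg/kg (CD females, replicate 4) they were 7708 and 101239. Sftpc was above 1000 in 6 of the libraries used, 3 at each dose, and at most 140 in the rest. It was highest in CD females replicate 5 (30176), and 24797 in CDF females replicate 4. The latter library also had the highest summed value and the lowest Alb at 10 mg/kg (658016). Its Xist, an RNA made in females, was 648, the lowest of the female libraries used, against at most 10.7 in males. Of 8 library measures, 0 passed a two-sided permutation test of the dose within strata (adjusted p = 0.976 for each). Alb had a median of 1173620 at 10 mg/kg and 1168310 at 2 mg/kg, and Klf1, a regulator of red cell formation, had 1819 and 1694.

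Across the genome the dose left no transcript past the threshold. Of 15377 genes tested with limma, 0 had an adjusted p under 0.05 (0% called), and the smallest adjusted p was 1.00. At an unadjusted p under 0.05 there were 315 genes (2.05%), 146 higher (0.949%) and 169 lower (1.1%) at 10 mg/kg. With no effect on any gene, a share of about 0.05 would be reached, so 2.05% is below that. The pooled fit keeps differences of the dose effect between strata in its residual, and their part in this share was not tested. For no tested gene did the 19 values at 10 mg/kg lie wholly above or below the 19 at 2 mg/kg. The median log2 difference over all genes was -0.00, and the median size of a difference, whatever its sign, was 0.06 on the log2 scale.

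The precision behind these values can be stated per gene. The median standard error of the pooled log2 difference was 0.12, and its 95% interval reached a median of 0.25, or 1.19-fold, to either side. For 13006 genes (84.6%) the whole interval lay within 1.5-fold in either direction, and for 95.9% within 2-fold. Differences smaller than the reach of these intervals were not detectable with 38 libraries, and larger ones could still miss the adjusted threshold. Each interval is for 1 gene taken alone. Marco, the gene of smallest p, had an interval of 0.21 to 0.65, which leaves out 0, and did not pass. Within 1 stratum the median standard error was 0.23 in the western diet and in control diet males, and 0.26 in control diet females. Within the strata, an unadjusted p under 0.05 was reached by 8.81% of genes in WD males, 1.44% in WD females, 3.49% in CD males and 7.78% in CD females.

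Genes that take up, hold and use folate had no pooled dose difference that passed the test. A set of 98 transport, folate, methionine, choline, nucleotide and DNA methylation genes was tested, and 0 had even an unadjusted p under 0.05 (2.05% over all genes). Their log2 differences ran from -0.21 to 0.19, with 61 of 98 above 0, and the smallest p was 0.23. For 94 of the 98 the 95% interval lay within 1.5-fold, and for all 98 within 2-fold. Folr1, Abcc2 and Aldh1l2 were among the other 4. Within WD males, Gmps and Pcyt2 of this set passed the threshold in the authors' deposited table. They had log2 fold changes of -0.42 (adjusted p = 0.0146 there) and 0.39 (adjusted p = 0.0383 there). Their pooled log2 differences here were -0.05 and 0.08.

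**Figure D1:**
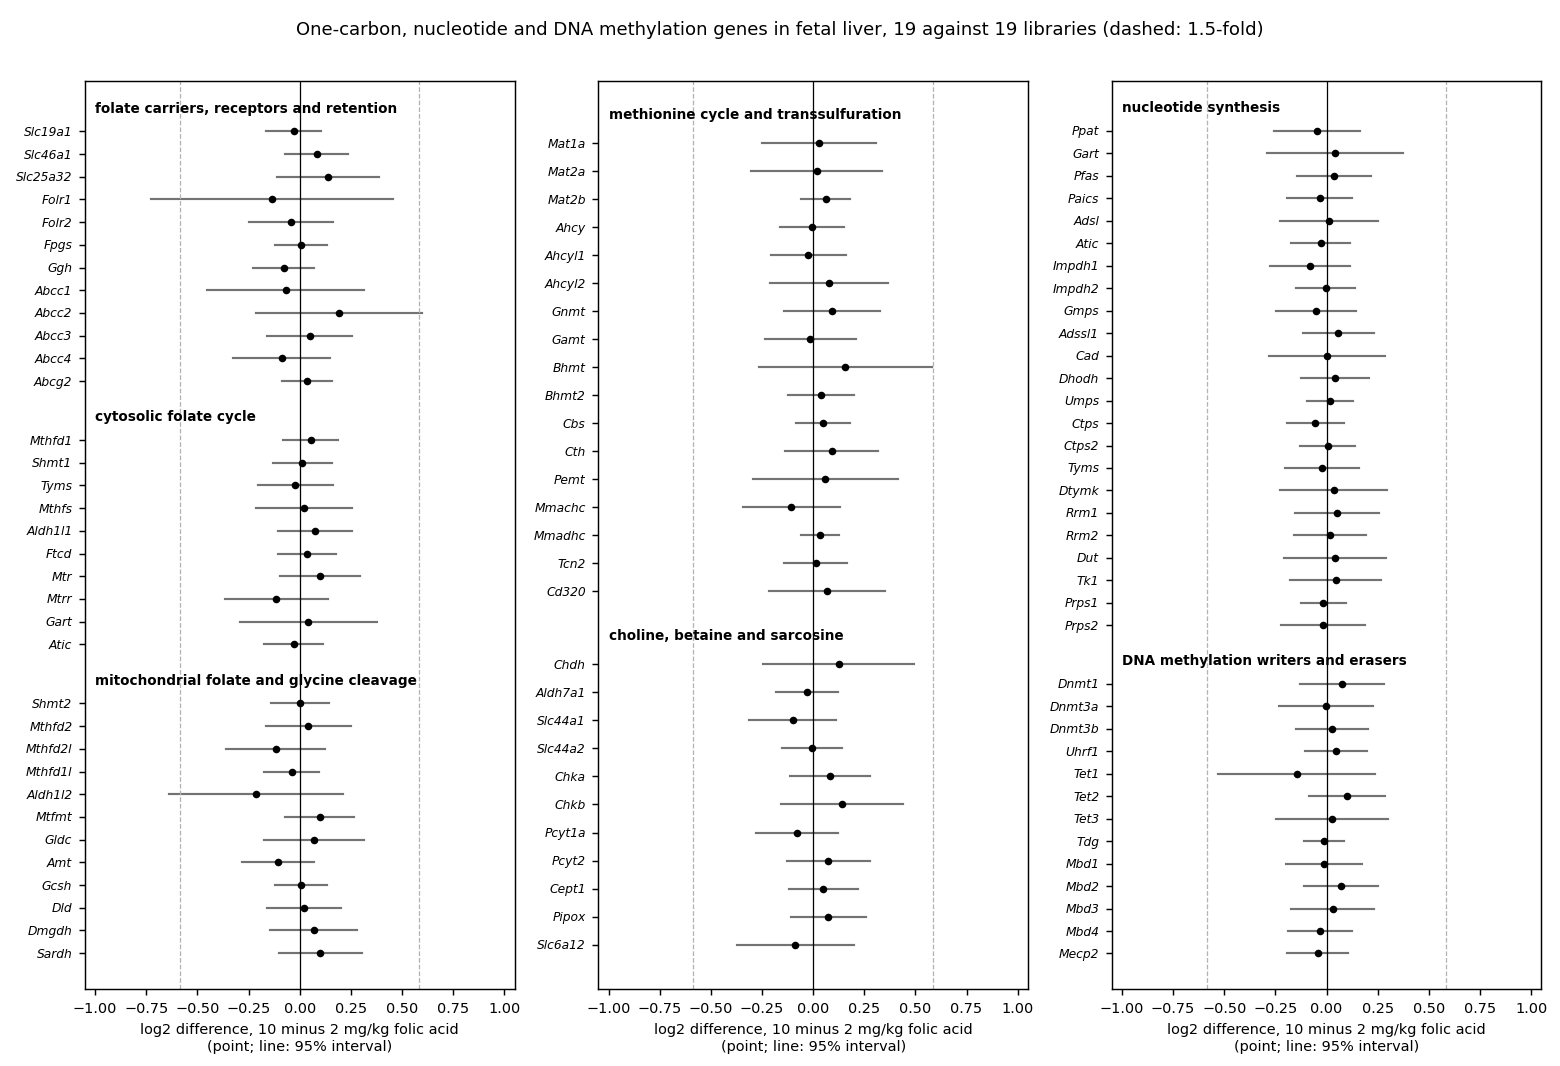
Log2 difference between 10 and 2 mg/kg folic acid (x axis; point, with its 95% interval as a line) for the tested genes reported here of 7 lists (y axis; Gart, Atic and Tyms stand in 2 lists each), from 19 libraries at 10 mg/kg and 19 at 2 mg/kg. The points lie between -0.21 and 0.19, every interval spans 0, and dashed lines mark 1.5-fold.

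Among the 12 genes of folate transport and retention, 6 differences were above 0 and the median was -0.01, against -0.00 over all genes tested. Slc19a1, the reduced folate carrier, had 113, 152 and 182 normalised read counts (lowest, median and highest) at 10 mg/kg, against 118, 149 and 186 at 2 mg/kg. Its log2 difference was -0.03, with a 95% interval of -0.17 to 0.11, so the groups overlapped almost wholly. Slc46a1, the proton-coupled folate transporter, had 178, 250 and 410 at 10 mg/kg and 192, 233 and 292 at 2 mg/kg (log2 difference 0.08, interval -0.07 to 0.24). Fpgs, which adds glutamates that hold folate in the cell, had 915, 1132 and 1369 at 10 mg/kg, against 855, 1154 and 1407 at 2 mg/kg, with a log2 difference of 0.01 and an interval of -0.12 to 0.13. Ggh, which removes those glutamates, was the 1 gene of this list with the same sign in all 4 strata, at a pooled log2 difference of -0.08 (interval -0.23 to 0.07). The folate receptor gene Folr1 was near the floor of the table, with 1.87, 6.51 and 23.4 at 10 mg/kg and 0, 8.13 and 27.4 at 2 mg/kg, and its interval of -0.73 to 0.45 was among the widest.

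In the cytosolic folate cycle 9 of 12 differences were above 0, with a median of 0.04. Tyms, the thymidylate synthase, had 506, 716 and 1029 at 10 mg/kg against 567, 688 and 1208 at 2 mg/kg (log2 difference -0.02, interval -0.20 to 0.16). Mthfd1, an enzyme that interconverts folate forms, had 1134, 1831 and 2307 at 10 mg/kg against 1326, 1810 and 2003 at 2 mg/kg (log2 difference 0.05, interval -0.08 to 0.19). The methionine synthase Mtr had 131, 286 and 404 at 10 mg/kg against 189, 250 and 386 at 2 mg/kg (log2 difference 0.10, interval -0.10 to 0.29), and for all these genes the doses overlapped.

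The mitochondrial arm, which feeds formate and glycine carbon into the cycle, had 8 of 12 differences above 0 and a median of 0.01. Shmt2, its serine hydroxymethyltransferase, had 2360, 2968 and 3667 at 10 mg/kg and 2171, 2790 and 3786 at 2 mg/kg, with an interval of -0.14 to 0.14 around a difference close to 0. Aldh1l2, the mitochondrial formyl-folate dehydrogenase, had the most negative difference of the 98 genes, at -0.21. It had 27.5, 96.6 and 213 at 10 mg/kg and 50, 97.6 and 258 at 2 mg/kg, and its interval of -0.64 to 0.21 spanned 0.

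Of 17 genes of the methionine cycle and transsulfuration, 13 differences were above 0, with a median of 0.04. Bhmt, which remakes methionine from betaine in place of folate, had 2077, 5196 and 9292 at 10 mg/kg against 2118, 4429 and 8853 at 2 mg/kg (log2 difference 0.16, interval -0.27 to 0.58). The widest stratum value of Bhmt was 0.75 in WD males, and in CD females it was -0.26. Mat1a, the liver enzyme that makes S-adenosylmethionine, had a difference of 0.03 (-0.25 to 0.31), Gnmt, which consumes it, 0.09 (-0.14 to 0.33), and Cbs, the first step of transsulfuration, 0.05 (-0.08 to 0.18). The choline and betaine list stood at 6 of 12 above 0, with a median of 0.02.

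Nucleotide synthesis had 13 of 23 differences above 0 and a median of 0.01, and all 23 intervals lay within 1.5-fold. By stratum its median was -0.19 in WD males, 0.02 in WD females, 0.11 in CD males and 0.02 in CD females. In WD males 6 of the 23 were above 0, and in CD males 16. Rrm2, a subunit of ribonucleotide reductase, had 3477, 4420 and 5485 at 10 mg/kg, against 3149, 4051 and 7000 at 2 mg/kg. Among 13 writers, readers and erasers of DNA methylation, 7 were above 0 and the median was 0.03. Dnmt1, which copies methylation after replication, had 951, 1433 and 2023 at 10 mg/kg against 868, 1293 and 2375 at 2 mg/kg (log2 difference 0.07, interval -0.13 to 0.28). Dnmt3a, which sets new methylation, had an interval of -0.23 to 0.23, and Tet2, which oxidises methylated cytosine, had 0.10 (-0.08 to 0.29). DNA methylation itself was not measured in these libraries.

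The 20 genes of smallest p, 10 in each direction, did not pass the threshold and are given as values. Their p ran from 0.000288 to 0.00548 and their log2 differences from 0.25 to 1.2 in size. All 20 had the same sign in all 4 strata, against 5.65% of all tested genes, which follows from ranking by the pooled p and is a description. For 11 of the 20, both dose medians were under 30 normalised read counts. Promoters in RefSeq (GRCm38.p6, 250 bases before to 50 after the start) were matched by symbol for 12 of the 20, and the first 2 matched in each direction are printed because CG dinucleotides, in capitals, are where mammalian DNA is methylated.
Marco, chr1:120504975-120505274, minus strand, 0 CG: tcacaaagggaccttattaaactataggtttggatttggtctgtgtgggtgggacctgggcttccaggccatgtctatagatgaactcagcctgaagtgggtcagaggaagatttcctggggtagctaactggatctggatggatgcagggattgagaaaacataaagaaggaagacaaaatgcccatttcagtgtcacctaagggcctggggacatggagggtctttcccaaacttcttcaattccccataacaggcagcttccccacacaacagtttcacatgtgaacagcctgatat
Osbpl9, chr4:109202223-109202522, minus strand, 17 CG: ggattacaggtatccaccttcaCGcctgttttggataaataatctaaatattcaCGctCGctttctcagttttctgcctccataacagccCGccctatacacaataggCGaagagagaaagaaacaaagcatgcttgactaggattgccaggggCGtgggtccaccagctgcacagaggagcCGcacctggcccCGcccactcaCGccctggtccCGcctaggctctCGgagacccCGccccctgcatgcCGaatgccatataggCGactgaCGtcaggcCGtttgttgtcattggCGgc
Tmem151a, chr19:5085442-5085741, minus strand, 43 CG: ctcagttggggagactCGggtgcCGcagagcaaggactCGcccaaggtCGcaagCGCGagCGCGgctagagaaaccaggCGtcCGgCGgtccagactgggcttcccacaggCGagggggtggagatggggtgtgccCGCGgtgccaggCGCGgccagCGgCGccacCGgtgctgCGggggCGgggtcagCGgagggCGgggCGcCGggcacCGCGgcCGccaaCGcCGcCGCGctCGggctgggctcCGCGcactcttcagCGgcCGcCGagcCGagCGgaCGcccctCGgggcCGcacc
Fmod, chr1:134037004-134037303, plus strand, 3 CG: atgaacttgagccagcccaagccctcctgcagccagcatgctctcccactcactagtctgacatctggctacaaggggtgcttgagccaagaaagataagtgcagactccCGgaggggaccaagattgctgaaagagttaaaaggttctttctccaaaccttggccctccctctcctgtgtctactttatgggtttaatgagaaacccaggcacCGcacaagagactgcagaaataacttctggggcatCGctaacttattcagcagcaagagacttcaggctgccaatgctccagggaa

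The promoters of the leading genes thus ran from no CG to 43, with 0 to 17 CG on the higher side and 2 to 43 on the lower side. Over 11305 tested genes with a promoter in the table, 99.2% of promoters held at least 1 CG, and the median was 20. The 6473 genes with 18 or more CG had a median dose difference of -0.00, the 3284 with 6 to 17 had 0.00, and the 1548 with fewer than 6 had 0.00. The share at an unadjusted p under 0.05 was 1.45% with 18 or more, 2.16% with 6 to 17 and 3.49% with fewer than 6. Median log2 levels ran the other way, at 8.27, 7.58 and 6.52, and the part of level in those shares was not tested. CG content and the dose difference had a Spearman correlation over genes of -0.03, with no p since genes are not replicates.

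Marco (chr1:120474538-120505024, GRCm38, minus strand), a scavenger receptor of macrophages that takes up bacteria and particles, had the smallest p. It had 1237, 2108 and 3122 normalised read counts at 10 mg/kg, against 966, 1503 and 2252 at 2 mg/kg. The median at 10 mg/kg was above that at 2 mg/kg, but the ranges overlapped. The log2 difference was 0.43 ± 0.11 (SE, 19 against 19 libraries; interval 0.21 to 0.65; adjusted p = 1.00 by limma), with 0.34 in WD males, 0.19 in WD females, 0.55 in CD males and 0.70 in CD females. With libraries weighted by their quality it was 0.54 and passed (adjusted p = 0.0232 by limma). Of 14 markers of Kupffer cells and macrophages, Marco included, 5 had a difference above 0 and 9 below, with a median of -0.01. Vsig4, a complement receptor of Kupffer cells, had -0.26 (n = 19 each, p = 0.0517). The summed level of the list was 16914 to 36883 at 10 mg/kg and 18502 to 24623 at 2 mg/kg. In bulk liver, fewer cells of a type and less RNA per cell cannot be told apart.

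Osbpl9 (chr4:109061145-109202272, minus strand), an oxysterol-binding protein that moves lipids between membranes, had 527, 641 and 846 at 10 mg/kg, against 420, 536 and 734 at 2 mg/kg. Its log2 difference was 0.25 ± 0.07 (SE), with 0.37 in WD males, 0.31 in CD males and 0.31 in CD females, and 0.01 in WD females, where both groups averaged close to 600. Without that stratum its adjusted p was 0.264 by limma, still short of the threshold. Exoc3l2, a gene related to the exocyst subunit Exoc3, had 60.3, 99.2 and 123 at 10 mg/kg and 58.9, 78.2 and 106 at 2 mg/kg (log2 difference 0.32 ± 0.09). These overlapping ranges show the size of shift that stands at the head of the ranking.

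Angptl4, a secreted inhibitor of lipoprotein lipase, had 545, 752 and 1069 at 10 mg/kg against 345, 637 and 867 at 2 mg/kg. Its log2 difference of 0.32 ± 0.10 was uneven over strata, at 0.75 in WD males and 0.08 in WD females. Apoa5 (chr9:46268633-46271919, plus strand), an apolipoprotein that promotes the clearance of triglyceride, had the largest difference of the 20, at 1.2 ± 0.41 (interval 0.38 to 2.03, n = 19 each, p = 0.00548, adjusted p = 1.00 by limma). It had 41.3, 606 and 3133 at 10 mg/kg and 46.6, 328 and 2339 at 2 mg/kg, so both doses covered nearly the same span. By stratum its difference was 1.2 in WD males, 0.15 in WD females, 1.75 in CD males and 1.78 in CD females. In the authors' deposited table of CD males Apoa5 had a log2 fold change of 1.89 and passed their threshold (adjusted p = 0.0258), and in their table of CD females it had 1.72 and did not (adjusted p = 0.771). For the western diet they gave it 0.0045 in males and 2.7e-07 in females, and neither passed. Their fold changes can lie near 0 where the differences here do not, as for Marco in CD males (-7.9e-05 against 0.55). The 2 sets of sizes are therefore not on 1 scale. The remaining higher genes, Lypd1, Zfp940, Trmt9b, Gm4859 and Gm37607, had medians of 10.4 to 14.3 at 10 mg/kg and 6.5 to 11.2 at 2 mg/kg.

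**Figure D2:**
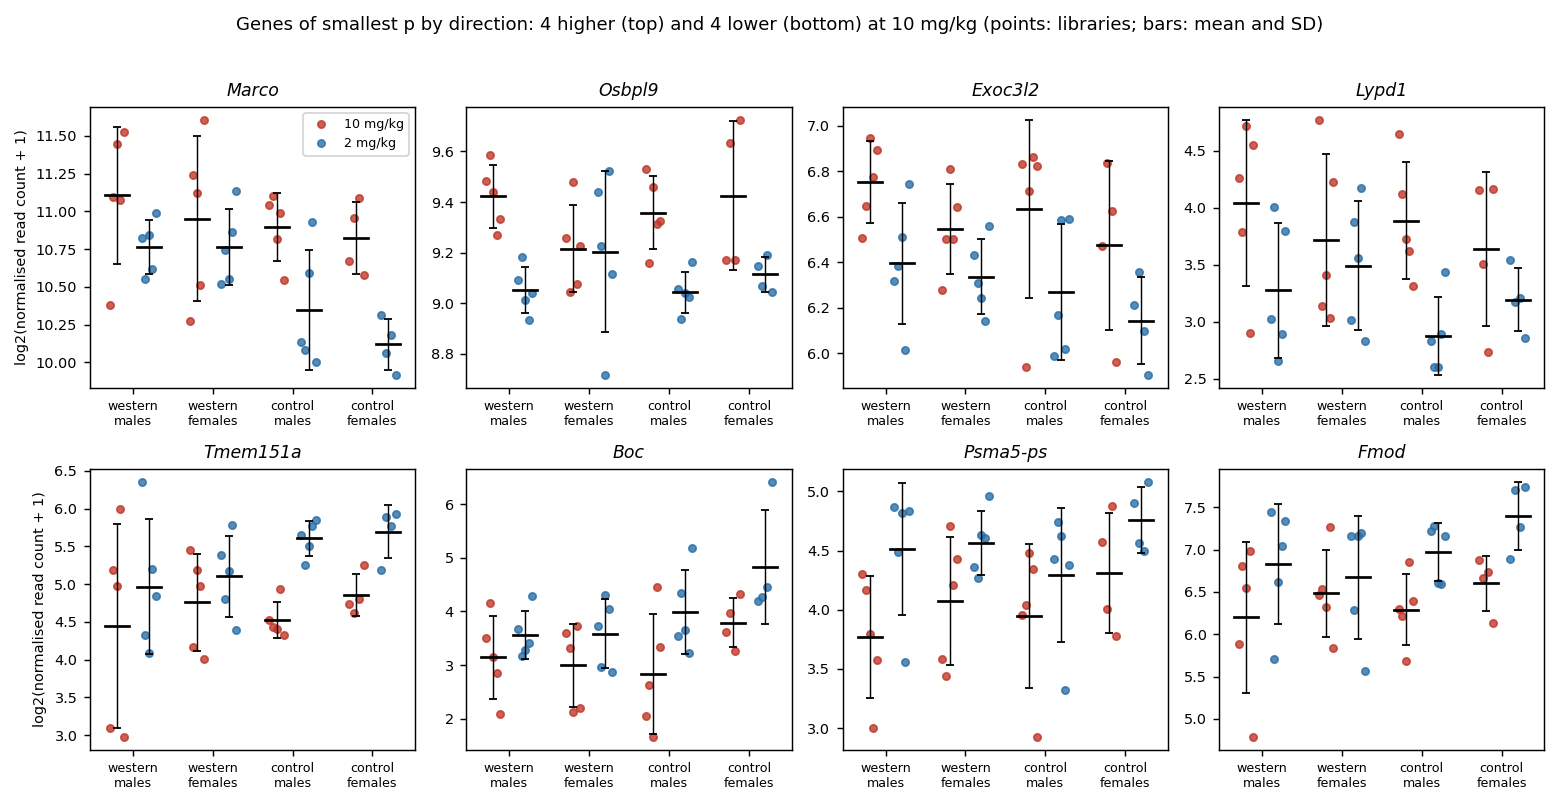
Log2(normalised read count + 1) in each library (points, y axis) for the 4 genes of smallest p in each direction, by fat level and sex (x axis), with 10 mg/kg to the left of 2 mg/kg and bars for the mean and SD of 4 or 5 libraries. Marco, Osbpl9, Exoc3l2 and Lypd1 have the higher mean at 10 mg/kg in each stratum and Tmem151a, Boc, Psma5-ps and Fmod the lower one, with points of the doses overlapping in most panels.

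On the lower side the smallest p was that of Tmem151a (chr19:5070859-5085531, minus strand), a transmembrane protein gene, which had 6.87, 25.6 and 63.0 at 10 mg/kg against 16.0, 40.9 and 80.9 at 2 mg/kg. Its log2 difference was -0.69 ± 0.21 (SE), and the span of the 2 doses overlapped. In CD males its mean was 22.3 at 10 mg/kg and 48.2 at 2 mg/kg, a log2 difference of -1.08. Fmod, the collagen-binding proteoglycan fibromodulin, had 26.6, 87.6 and 153 at 10 mg/kg and 46.4, 142 and 212 at 2 mg/kg (log2 difference -0.56 ± 0.18). Sned1, an extracellular matrix protein gene, and Srpx2, a secreted sushi-repeat protein gene, had -0.70 ± 0.22 and -0.76 ± 0.25. Boc, a co-receptor of Hedgehog ligands, had -0.79 ± 0.25. It was 84.4 in CD females replicate 5, against 17.3 to 20.9 in the other CD females. That library also had the highest value of Fmod, Srpx2 and Epn2, and the highest Sftpc of the libraries used (30176). Its value of Myh6, a heart muscle gene, was 2920. When each library was left out in turn, Boc lay between -0.87 and -0.68, Srpx2 between -0.85 and -0.65 and Fmod between -0.64 and -0.47. Epn2 lay between -0.27 and -0.20. Evpl, the gene of envoplakin in the cornified envelope, had -0.84 ± 0.27, with -1.84 in CD males and -0.36 to -0.56 in the other strata. D6Wsu163e, Epn2, Psma5-ps and Jph1 completed the 10, with differences of -0.25 to -0.51. Psma5-ps and Gm4859 are processed pseudogenes, so their counts may hold reads of their parent genes.

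Beyond folate metabolism, 32 further lists of pathways and cell types were set beside all genes, of which 7621 of 15377 had a difference above 0 (49.6%). Of 32 genes of fatty acid oxidation and ketogenesis 28 were above 0, with a median of 0.09, and 1, Angptl4, had a p under 0.05. Of 16 apolipoprotein and lipoprotein genes 14 were above 0, with a median of 0.14 and 3 at a p under 0.05, against 2.05% of all tested genes. Besides Apoa5 these were Apoe, a ligand for lipoprotein uptake (73548, 96403 and 133289 at 10 mg/kg, against 68976, 90200 and 119689 at 2 mg/kg; log2 difference 0.17), and the hepatic lipase Lipc at 0.16. None of these passed the adjusted threshold. The list medians differed by stratum: for apolipoproteins they were 0.44 in WD males, -0.10 in WD females, -0.05 in CD males and 0.53 in CD females.

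In the insulin and IGF list, 12 of 16 were above 0. Igfbp2, which binds insulin-like growth factors, had 2167, 5687 and 18522 at 10 mg/kg and 1287, 3831 and 10909 at 2 mg/kg (log2 difference 0.59, n = 19 each, p = 0.0201). Igfbp1, which liver makes in fasting, had 15984, 24918 and 34131 at 10 mg/kg against 3827, 20020 and 56847 at 2 mg/kg (log2 difference 0.55, n = 19 each, p = 0.0227). For Igfbp1 the 2 mg/kg group held both the lowest and the highest library. Pooled, the synthesis lists lay near 0: cholesterol synthesis had 11 of 24 above 0 and a median of -0.00, and fatty acid and triglyceride synthesis had 8 of 24 and -0.03. By stratum, cholesterol synthesis had 5 of 24 above 0 in WD males, 16 in WD females, 11 in CD males and 15 in CD females. For fatty acid and triglyceride synthesis these were 10, 19, 7 and 15 of 24. Cell cycle genes had 13 of 30 above 0 and a median of -0.02 when pooled, and all 30 pooled intervals lay within 1.5-fold. By stratum, 2 of the 30 were above 0 in WD males, 15 in WD females, 25 in CD males and 18 in CD females.

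**Figure D3:**
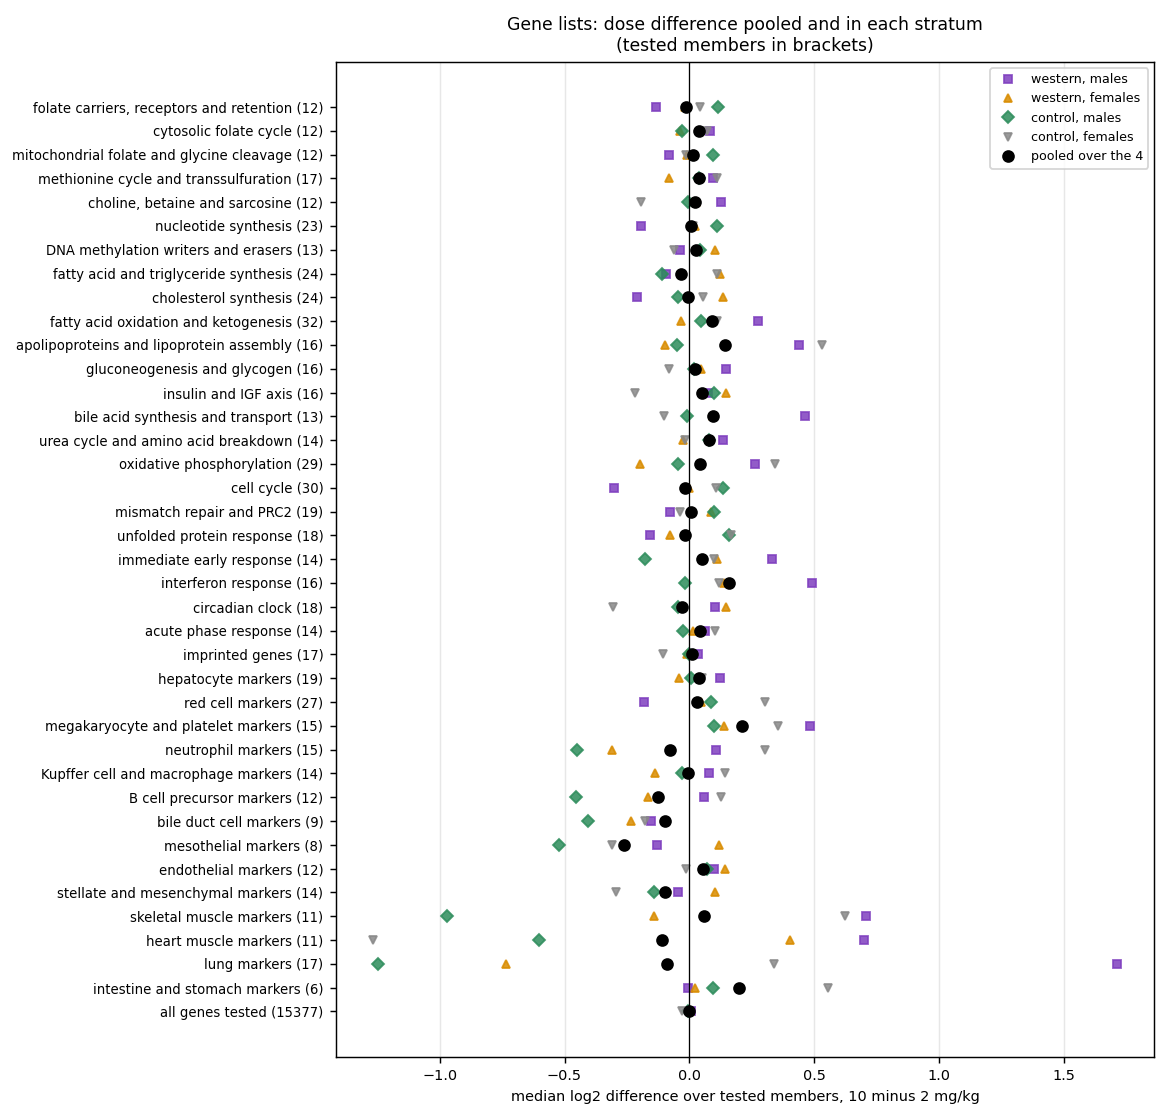
Median log2 difference between 10 and 2 mg/kg over the tested members of each list (x axis), pooled (black) and in each of 4 strata (coloured), with the number of tested members in brackets (lists on the y axis). Pooled medians lie between -0.26 for mesothelial and 0.21 for megakaryocyte and platelet markers, while lung markers run from 1.71 in WD males to -1.25 in CD males.

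Other metabolic and signalling lists had pooled medians within 0.16 of 0. Interferon response genes had 13 of 16 above 0 and a median of 0.16, and Rsad2, an antiviral enzyme, had 0.37 (n = 19 each, p = 0.0384). Bile acid synthesis and transport had 10 of 13 and 0.10. The sterol hydroxylase Cyp27a1 had 0.37 (n = 19 each, p = 0.0198) and the bile salt export pump Abcb11 0.25 (n = 19 each, p = 0.048). By stratum Cyp27a1 was 1.22 in WD males, 0.18 in WD females, -0.08 in CD males and 0.09 in CD females. Abcb11 was 0.62 in WD males, -0.10 in WD females, 0.02 in CD males and 0.51 in CD females. The bile acid list's median was 0.46 in WD males, 0.09 in WD females, -0.01 in CD males and -0.10 in CD females. Oxidative phosphorylation had 24 of 29 and 0.04, and its stratum medians were 0.26 in WD males, -0.20 in WD females, -0.04 in CD males and 0.34 in CD females. The urea cycle list had 12 of 14 and 0.08, gluconeogenesis 11 of 16 and 0.02, and immediate early genes 9 of 14 and 0.05. Mismatch repair and the polycomb complex PRC2 had 11 of 19 and 0.01, imprinted genes 10 of 17 and 0.01, and the unfolded protein response 7 of 18 and -0.02. Clock genes had 7 of 18 above 0 and a median of -0.03, with the repressor Nr1d1 at 0.35 (n = 19 each, p = 0.0222) and Cry1 at -0.19 (p = 0.047). In the acute phase list, 11 of 14 above 0 with a median of 0.04, the iron hormone hepcidin, Hamp, had 127, 442 and 11136 at 10 mg/kg against 22.7, 432 and 6234 at 2 mg/kg. Its log2 difference of 1.37 (n = 19 each, p = 0.0261) was made up of -0.91 in WD males, 0.58 in WD females, 3.34 in CD males and 2.76 in CD females, so the strata did not share a direction.

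Among cell type markers, all 15 genes of megakaryocytes and platelets had a difference above 0, with a median of 0.21 and 3 at a p under 0.05, against 2.05% of all tested genes. Gp9, a subunit of the platelet receptor for von Willebrand factor, had 128, 208 and 341 at 10 mg/kg against 113, 166 and 249 at 2 mg/kg (log2 difference 0.30, n = 19 each, p = 0.00566). The other 2 were Treml1 at 0.29 and the collagen receptor Gp6 at 0.42. The summed level of the list was 4955 to 12108 (median 7210) at 10 mg/kg and 3575 to 10302 (median 6258) at 2 mg/kg. By stratum the list's median was 0.48 in WD males, 0.14 in WD females, 0.10 in CD males and 0.36 in CD females. Red cell markers had 22 of 27 above 0 and a median of 0.03, and hepatocyte markers 17 of 19 and 0.04. Endothelial markers had 10 of 12 and 0.05, neutrophil markers 3 of 15 and -0.08, and B cell precursor markers 3 of 12 and -0.13. The strata did not share these directions. Neutrophil markers had 12 of 15 above 0 in WD males and 13 in CD females, but 1 in WD females and 1 in CD males. B cell precursor medians were 0.06 in WD males, -0.17 in WD females, -0.45 in CD males and 0.13 in CD females.

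Of 8 mesothelial markers 0 had a difference above 0, with a median of -0.26 and none at a p under 0.05, and Upk3b, a uroplakin of mesothelium, had -0.36 (n = 19 each, p = 0.0613). Their summed level was 790 to 2795 at 10 mg/kg and 839 to 3706 at 2 mg/kg. Their median was -0.13 in WD males, 0.12 in WD females, -0.52 in CD males and -0.31 in CD females. In WD females 5 of the 8 were above 0. Of 9 bile duct markers 1 was above 0, with a median of -0.10. Spp1, osteopontin, had 62.8, 141 and 502 at 10 mg/kg and 114, 187 and 404 at 2 mg/kg (log2 difference -0.48, n = 19 each, p = 0.0213), and Krt19, a keratin of bile ducts, had -0.71 (p = 0.0426). In the stellate and mesenchymal list 4 of 14 were above 0, and the collagen genes Col1a1 and Col1a2 had -0.31 and -0.30. Lung markers had 3 of 17 above 0 and a median of -0.09, with a summed level of 1093 to 32598 at 10 mg/kg and 903 to 48187 at 2 mg/kg. Heart muscle markers had 3 of 11 above 0 and a median of -0.11, skeletal muscle markers 6 of 11 and 0.06, intestine and stomach markers 5 of 6 and 0.20, and exocrine pancreas markers 2 of 3 and 0.01. The part of these other cell types in the values of Krt19, Fmod and the collagen genes was not tested, apart from the fit with Sftpc as a covariate, under which Fmod had a log2 difference of -0.54.

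Whether the dose difference itself differed by sex or fat level was tested next, and no gene passed. Of 15377 genes, 0 had an adjusted p under 0.05 for the difference between males and females (0%) and 165 an unadjusted one (1.07%). The smallest p belonged to Arhgef15, a guanine nucleotide exchange factor of vessels, with dose differences of 0.42 in WD males and 0.24 in CD males, and -0.06 in WD females and -0.46 in CD females (difference 0.59 ± 0.17, adjusted p = 1.00 by limma). Plin4, a lipid droplet coat protein, had 1.25 ± 0.41. Map2k5, Ints10 and the pseudogene Gm49832 led the opposite direction, with -0.33, -0.52 and -2.79. Gm49832 lay at the floor, at 0 in 8 of 19 libraries at 10 mg/kg and 11 of 19 at 2 mg/kg. Its mean was 0 in CDF males and in CD females.

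For the difference between western and control diet the count was also 0 (0%), with 717 genes at an unadjusted p under 0.05 (4.66%), 416 (2.71%) more positive and 301 (1.96%) more negative under the western diet. Per3, a gene of the circadian clock, had the smallest p. It averaged 91.9 ± 12.9 in WDF males and 99.2 ± 7.0 in WDF females, against 72.2 ± 9.2 in WD males and 69.1 ± 6.7 in WD females, and 77.1 ± 17.1 in CDF males and 70.6 ± 31.1 in CDF females, against 95.4 ± 6.5 in CD males and 101 ± 15 in CD females (SD, n = 5, or 4 for CDF and CD females). The dose difference was 0.34 in WD males and 0.52 in WD females, and -0.33 in CD males and -0.64 in CD females, which gives a difference of 0.92 ± 0.21 (adjusted p = 0.968 by limma). Mogat2, which makes diacylglycerol for triglyceride, had the opposite pattern, at -0.31 and -0.48 in WD males and females and 0.41 and 0.36 in CD males and females (difference -0.78 ± 0.19). Next were Gm28042 at 3.23 and L3mbtl3 at 0.74 on the positive side, and Nostrin at -0.50 and the carboxylesterase Ces2b at -1.34 on the negative side. Pooled over strata, Per3 had a log2 difference of 0.00 and Mogat2 of -0.02.

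Strata share no library. Over all genes the dose differences of WD males and CD females had a Pearson correlation of 0.28, and those of WD females and CD males one of 0.26. The other 4 pairs of strata had correlations of -0.21 to -0.41, again across genes and so without a p. A contrast added after this was seen, WD males and CD females against WD females and CD males, had 3920 genes at an unadjusted p under 0.05 (25.5%). That number was 2291 to 5136 when each library was left out, and 513 to 4368 under the other settings, those with covariates included. At an adjusted p under 0.05 it had 1 (0.0065%), the processed pseudogene Gm6142, with dose differences of 1.02 and 1.27 in WD males and CD females and -0.89 and -1.39 in WD females and CD males. Gm6142 lay near the floor, with 1.14 to 26.1 normalised read counts at 10 mg/kg and 2.13 to 15.3 at 2 mg/kg.

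A property of the libraries is given beside this contrast. The first component of variation within strata held 49.9% of that variance over 11420 genes. Over libraries it had a Spearman correlation of -0.96 with how far a library favours long transcripts, and 0.82 with the nuclear RNA Malat1, all 3 measured on the same libraries. Its mean was 0.05 ± 0.09 in WDF males against -0.05 ± 0.18 in WD males, and -0.05 ± 0.17 in WDF females against 0.05 ± 0.14 in WD females (SD, n = 5 each). It was -0.05 ± 0.13 in CDF males against 0.05 ± 0.20 in CD males (SD, n = 5 each), and 0.10 ± 0.28 in CDF females against -0.10 ± 0.10 in CD females (SD, n = 4 each). Each gap was smaller than the SD of at least 1 of its groups, and single libraries set much of it. Without CD males replicate 4 the difference in CD males was -0.02, against -0.10 with all 10 libraries. Without CDF females replicate 4 the difference in CD females was 0.06, against 0.19 with all 8. In WD males it was 0.10, and 0.05 without WD males replicate 5 or 0.06 without replicate 4. In WD females it was -0.11, with -0.07 without WDF females replicate 4 and -0.17 without replicate 3. Pooled over strata the dose difference in this component was 0.01 (two-sided permutation p = 0.835, adjusted p = 0.976). The part of this component in the added contrast was not tested.

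**Figure D4:**
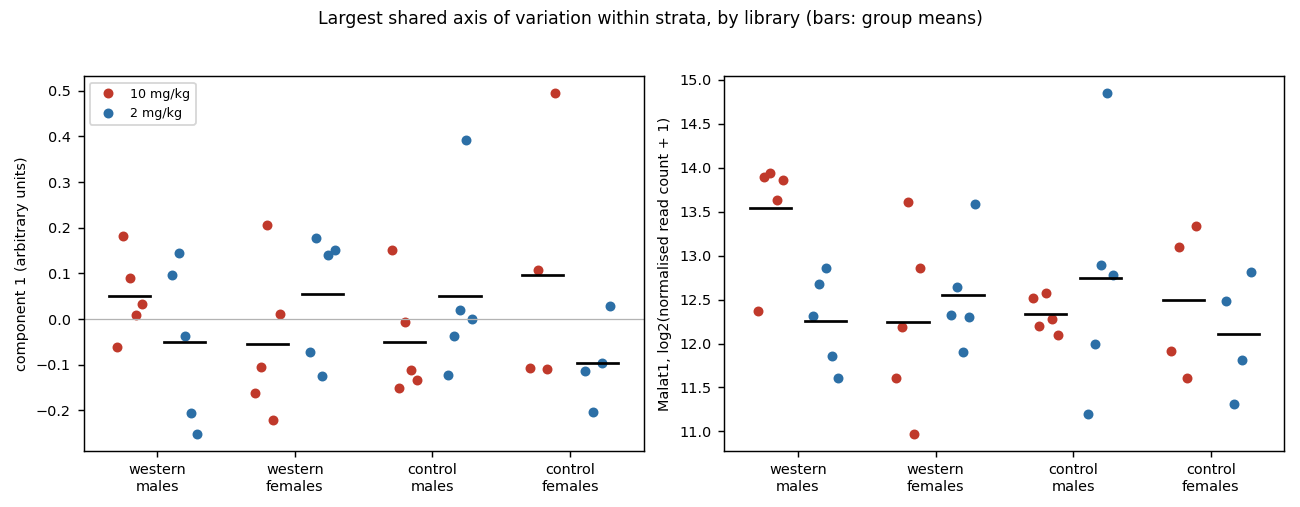
First component of variation within strata (left, arbitrary units) and Malat1 as log2(normalised read count + 1) (right) in each of 38 libraries, by fat level and sex (x axis), with 10 mg/kg to the left of 2 mg/kg and bars for group means. The mean of the component is higher at 10 mg/kg in WD males and CD females and lower in WD females and CD males, and the points of both doses overlap in each stratum.

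The authors' own tables of the dose, 1 per stratum, held 203 genes past an adjusted p of 0.05 in WD males (1.48% of those with a value), 0 in WD females (0%), 7 in CD males (0.0437%) and 4 in CD females (0.0216%). The 203 genes, 134 higher and 69 lower at 10 mg/kg in the authors' deposited table, were set against the other strata, which share no library with WD males. In CD females 176 of 203 had the same direction as in WD males, in WD females 48 and in CD males 29. Over all tested genes the sign matched that in WD males for 65.6% in CD females, 36% in WD females and 30% in CD males. The median log2 difference, signed by the direction in WD males, was 0.20 in CD females, -0.12 in WD females and -0.26 in CD males.

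**Figure D5:**
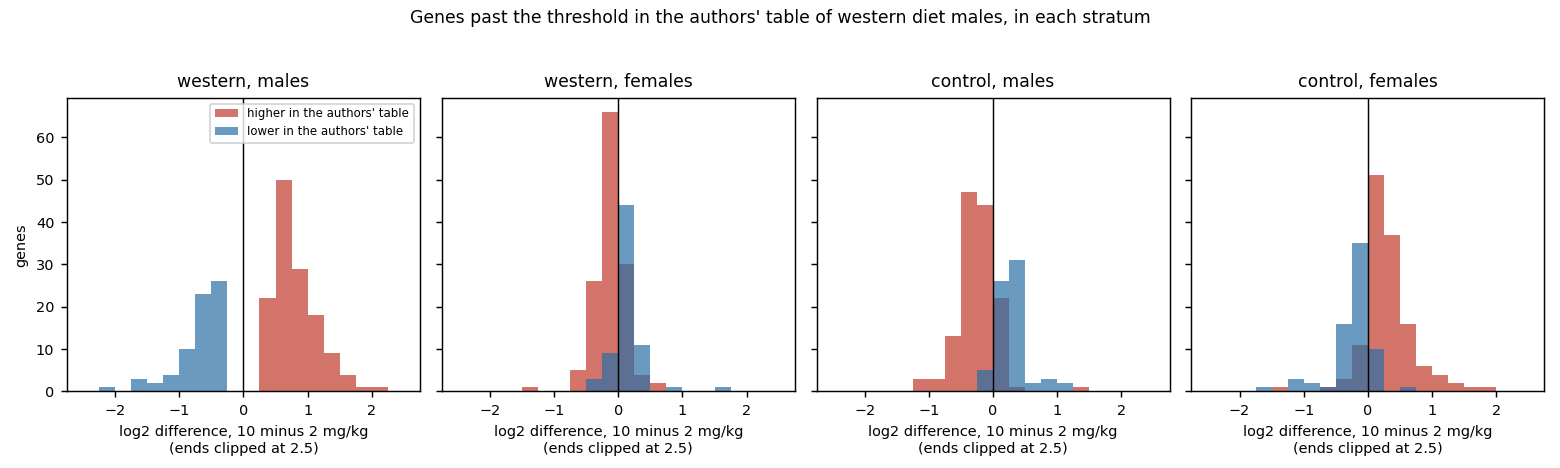
Number of genes (y axis) by log2 difference between 10 and 2 mg/kg (x axis, clipped at the ends) in each stratum, for the 203 genes past the threshold in the authors' table of western diet males, coloured by their direction there. The colours lie on the same sides of 0 in control diet females for 176 genes, and on opposite sides for most in western diet females and control diet males.

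Of the 11 genes past the threshold in the authors' deposited tables of the control diet, of which 5 besides Apoa5 are described here after their values were seen, only Apoa5 had a pooled p under 0.05. Fabp2, an intestinal-type fatty acid binding protein, had a dose difference of 1.71 in CD females but -0.71 in WD males, and 0.16 pooled (interval -0.37 to 0.69). Apoa4, an apolipoprotein of gut and liver, had 2.55 in CD females and -0.85 in WD males, and 0.40 pooled (interval -0.40 to 1.21). Dysf, a membrane repair protein, had 1.56 in CD females and 1.18 in WD males but -0.43 in CD males, and 0.44 pooled. Ngp, a neutrophil granule protein, had -0.45 in CD males and -0.16 pooled, in a list of 15 neutrophil markers with 3 above 0. Xlr3b, an X-linked gene of a lymphocyte-regulated family, had 2.36 in CD males and 1.80 in CD females but -1 in WD males, and 0.62 pooled (interval -0.35 to 1.60).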

How the data were processed

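RNA from 40 fetal livers was sequenced from poly(A)-selected, directional, paired-end libraries, per the labels' protocols. Trimmomatic 0.39, STAR 2.7.3a, Salmon 1.3.0, DESeq2 1.24 and the mouse build mm10 are named per the submitters' processing notes, with roles and order not given in the sources used here. Per gene, the deposited signal values are normalised read counts. Factors recomputed by the median of ratios were the same, 1.01, for all 40 libraries, so the values were already scaled between libraries. Of values under 30, only 27.4 to 55.0% per library lay close to whole multiples of 1 step. Division of counts by a single factor per library was therefore not established. Whole reads could not be recovered from them, so a test of log values replaced a count model. The authors' deposited tables of each dose comparison hold log2 fold changes and adjusted p-values.

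Of 20593 genes, the test covered the 15377 that reached a value of 10 in 5 or more libraries. Values were transformed as log2(value + 1), on which fold changes of low genes are understated, and fitted with limma 3.58.1 (R 4.3.3; trended, robust moderation) on 8 group means; the pooled dose effect has the stratum as a block. Benjamini-Hochberg adjustment ran over all tested genes, with a threshold of 0.05, and intervals are at 95%. Single library measures were compared by permutation within strata (100000 resamples, NumPy 2.4.6). Spearman correlations over libraries were computed with SciPy 1.17.1. The fit was tested on simulated data with noise drawn independently for each gene. The real libraries share variation across genes, so that test gives no error rate for them.

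Named genes were the 10 of smallest p in each direction (3 for each difference of effects), folate and methylation list members, and up to 4 of smallest p of other lists. Some genes these rules name are not reported here, though they count in the totals. The members and the 39 lists were chosen with earlier results of these data known. Promoter sequences came from RefSeq. Alternatives covered the libraries, design, scaling, filter, pseudocount, moderation, weights, covariates and thresholds.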

Additional observations from a re-analysis of the deposited data

Results flagged for a closer look

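Within each group of 4 or 5 libraries, the most extreme value of each of the 20 genes of smallest p was set against the others by Dixon's gap test. Of 160 such groups 9 held a library far from the rest, and chance gives about 1 in 20. Exoc3l2 was 60.3 normalised read counts in CDF males replicate 2, against 104 to 115 in the others. In CDF females replicate 2, Angptl4 was 857 against 743 to 760 in the others, and Trmt9b was 4.46 against 12.1 to 13.4. Apoa5 was 41.3 in WDF females replicate 2, against 431 to 597 in the others. Boc was 84.4 in CD females replicate 5, the library used that was highest in Sftpc, against 17.3 to 20.9. Psma5-ps was 8.97 in CD males replicate 4, against 19.8 to 25.8. Sned1 was 57.5 in WD females replicate 1, against 16.8 to 21.5. Srpx2 was 17.9 in CDF males replicate 4, against 6.81 to 8.38, and 9.21 in WD males replicate 2, against 19.5 to 23.3.

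Gm6142 is listed because its dose difference in WD males and CD females differed from that in WD females and CD males by 2.28 ± 0.41 (SE; adjusted p = 0.0491 by limma), in a contrast chosen after seeing the data.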

How the results depend on the processing

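The pooled dose effect had 0 genes past the threshold when each library was left out in turn, and 0 under every other setting run except library weights, which gave 1, Marco (log2 difference 0.54, adjusted p = 0.0232 by limma). Library weights also gave 2 genes for the difference by fat level and 3 for the contrast of WD males and CD females with the other strata. That contrast, added after seeing the data, had 1 gene (0 to 1 when each library was left out). It had 0 with all 40 libraries, with 36, and with median-ratio factors recomputed. The same held with a pseudocount of 0.5 or 5, with voom, and with the red cell or Sftpc covariate, and the cause was not tested. It also had 0 with the stricter filter (at least 50 in 19 libraries), which removes Gm6142, at most 26.1 in any library, before the test. With the transcript-length measure or the first component as a covariate it had 0 as well. Both of these are built from the same values with the dose difference left in, so that a smaller contrast follows from their construction. The number of genes at an unadjusted p under 0.05 for the dose was 246 to 483 when each library was left out, and 144 to 946 under the other settings, with 144 for all 40 libraries and 501 without WD females. Replicate numbers did not pair the samples (7 of 18 pairs correlated above 0.1), and with the replicate block the counts past the threshold were 0 for the dose, both differences and the added contrast. The signs of all 20 leading genes held under every setting run, with Marco at 0.36 to 0.54. The 98 folate, nucleotide and methylation genes had a smallest adjusted p of 0.861 by limma over 60 settings.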
